A study of Saccharomyces cerevisiae with 8 samples.

Results

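The proteasome genes of Saccharomyces cerevisiae were followed on 8 spotted arrays from 5 strains. They were chosen by symbol alone: every gene named PRE, PUP, RPN or RPT with a number, plus SCL1. The rule found 34 of the 5539 genes on the arrays. Of these, 14 encode the core particle (7 of the alpha ring, 7 of the beta ring) and 18 the regulatory particle (6 ATPases of the base, 4 other base subunits, 8 lid subunits). The remaining 2 carry an RPN name without being subunits: RPN4 encodes the transcription factor that activates proteasome genes, and RPN14 an assembly factor of the base. They were kept apart from both particles, but every count, median and correlation over the 34 proteasome genes includes them.

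The proteasome degrades proteins tagged with ubiquitin. The core particle is a barrel of stacked rings: outer alpha rings form the gate and inner beta rings hold the protease sites. The regulatory particle caps the barrel, with a base whose ATPases unfold the substrate and a lid that removes its ubiquitin. In yeast, Rpn4 binds upstream of most proteasome genes and is itself degraded by the proteasome, so the genes are known for moving together when proteasome activity falls short.

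Each array set 2 RNA samples of 1 strain against each other. Channel 1 held cells from minimal medium to which 10 mM glycine had been added and channel 2 cells from minimal medium alone, both grown at steady state to early log phase. The parent of the deletion collection, BY4741, was on 2 arrays, numbered 1 and 3 in the titles, and strains of the collection deleted for bas1 and for bas2 were on 2 arrays each, numbered 1 and 2. Strains lacking gcn4 or shm2 had a single array. BAS1 and PHO2 (BAS2) encode transcription factors of purine genes, SHM2 a serine hydroxymethyltransferase and GCN4 the activator that answers amino acid starvation. All deletion strains come from 1 collection, so each genotype was represented by a single strain. Separate cultures are not stated for replicates, so p-values measure the spread between arrays, which may be technical.

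Several facts of the arrays bear on every value. For bas2 replicate 1, title and source name disagree, the latter naming BY4741, and zap1, a further gene name, stands in the title of BY4741 replicate 3; both arrays were kept with the strain of their title. Both channels of an array hold the same strain, so a deleted gene's ratio is at most a weak check of the label. GCN4 had no value on gcn4 and a value on every other array. Centred as described next, SHM2 stood at -0.24 on shm2 and further from 0 on every other array. BAS1 stood at -0.69 and -0.39 in bas1 and PHO2 at -1.04 and -0.16 in bas2. Neither was nearest to 0 in its own deletion strain. A value is the log2 ratio of the channels, averaged over the spots of a gene and centred on the median gene of its array, so 0 is the middle gene of that array. The array medians removed by centring ran from -0.78 to 0.65. Over all spots, bas1 replicate 1 correlated at -0.304 with BY4741 replicate 1 and at -0.109 with gcn4. With the other arrays it correlated from 0.053 (bas1 replicate 2) to 0.577 (bas2 replicate 1), with 0.224 for BY4741 replicate 3 and 0.221 for shm2. Turning both bas1 arrays, an alternative given below, reverses the sign of the correlations with other strains. Which channel is the numerator is not given in the sources used here, so direction is not settled and signs stand as deposited. A positive value is therefore a ratio above the middle of its array and is not read as higher or lower with glycine. The SD over all genes ran from 0.379 (BY4741 replicate 3) to 2.07 (bas1 replicate 2), and 5465 of 12800 spots on bas1 replicate 2 and 2302 on bas2 replicate 2 had no value. The number of arrays limits the precision, and the brightness behind a ratio is unknown.

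All 34 proteasome genes had a value on every array, whereas 57.2% of all genes did. The gene's 2 spots usually gave the same ratio: the median difference between them over proteasome genes was 0.036 to 0.130 on the 8 arrays, against 0.049 to 0.171 over all genes with 2 spots. Of the 272 gene values, 4 rested on 1 spot and 10, of 9 genes, came from spots that differed by more than 1. Some of the most extreme values are among them. SCL1, an alpha ring gene, stood at -1.91 on BY4741 replicate 3, where its spots read 0.67 and -4.48. RPT4, a base ATPase gene, stood at 2.40 on bas2 replicate 1 from spots at 0.22 and 4.58. PRE8 (alpha ring) stood at -1.59 on bas2 replicate 2 from spots at -0.23 and -2.95. The single-spot values were PRE3 at -2.16 and RPT2 at -2.83 on bas1 replicate 2, and PRE7 at 3.26 and RPN2 at 0.39 on bas2 replicate 2. The values of every gene are laid out in the map of genes by array.

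**Figure D1:**
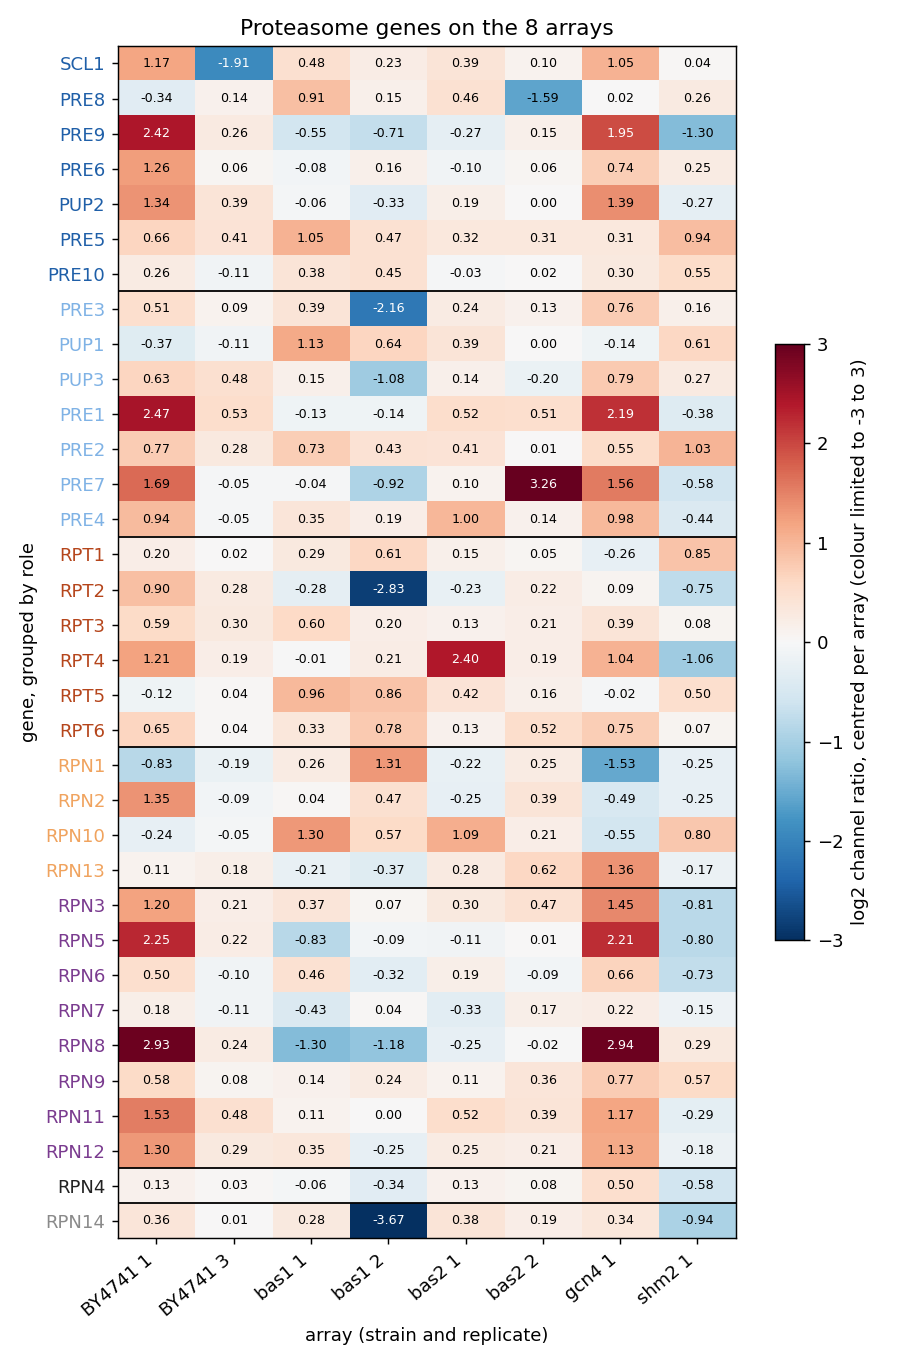
Centred log2 channel ratios of the 34 proteasome genes (rows, grouped by role, with label colours for the groups) on the 8 arrays (columns, strain and replicate number). Each cell prints its value and the colour scale ends at -3 and 3. BY4741 1 and gcn4 1 hold most of the strongly positive cells, with RPN8 at 2.93 and 2.94.

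Proteasome genes stood mostly above the middle gene of their array. The number with a positive ratio was 29 of 34 on BY4741 replicate 1, 24 on BY4741 replicate 3, 22 and 20 on bas1 replicates 1 and 2, 25 and 30 on bas2 replicates 1 and 2, 28 on gcn4 and 16 on shm2, where centring puts 50.0% of all genes above 0. The exception was thus shm2, with 18 negative genes. Their median ratio was 0.65 and 0.09 on the BY4741 arrays, 0.27 and 0.11 on the bas1 arrays, 0.19 and 0.16 on the bas2 arrays, 0.74 on gcn4 and -0.16 on shm2. Because arrays differ in spread, the place of that median among all genes of the array is the better measure: it lay at the 76.1st and 64.1st percentile in BY4741, the 66.0th and 54.0th in bas1, the 67.2nd and 60.3rd in bas2, the 79.2nd in gcn4 and the 38.7th in shm2. Most proteasome genes were therefore shifted by modest amounts, and only BY4741 replicate 1 and gcn4 held many at 1 or higher (13 and 12 of 34, where 15.1% and 13.2% of all genes reached 1). On the other arrays 0 to 3 did, among them 1 of 34 on bas1 replicate 2 and 1 on bas2 replicate 2, where 20.5% and 9.70% of all genes reached 1. These shares and percentiles are over all genes with a value on the array. Of the 3168 genes complete on all 8 arrays, as these 34 were, 56.7% had a positive mean over the 5 strains. Among genes with a value on both bas1 arrays, the median of the proteasome means in bas1 lay at the 47.8th percentile.

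A gene with the same sign on all 8 arrays is the most uniform outcome the data can give. Of the proteasome genes, 5 of 34 (14.7%) were positive on all 8, where 4.73% of the 3168 genes with a value on every array were. None was negative on all 8, where 2.18% of those genes were. On 7 or 8 arrays, 10 of 34 were positive (29.4%, against 14.4%) and 0 negative (against 7.23%). The 5 were PRE2 (YPR103W), PRE5 (YMR314W), RPN9 (YDR427W), RPT3 (YDR394W) and RPT6 (YGL048C). They come from both particles: PRE2 encodes the beta subunit with the chymotrypsin-like site, PRE5 an alpha subunit, RPN9 a lid subunit, and RPT3 and RPT6 ATPases of the base. If the bas1 ratios are turned, 0 proteasome genes were positive on all 8. The turn by itself takes out these 5. Without centring, which leaves the array medians in the values, 0 were. When values from discordant spots were left out, an alternative chosen after seeing the data, 3 of the 25 genes still complete were positive on all 8. Shares over all genes were not computed under these alternatives.

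PRE2 stood at 0.77 and 0.28 in BY4741, 0.73 and 0.43 in bas1, 0.41 and 0.01 in bas2, 0.55 in gcn4 and 1.03 in shm2. PRE5 stood at 0.66 and 0.41, at 1.05 and 0.47, at 0.32 and 0.31, at 0.31 and at 0.94 on the same arrays. Both were lowest in bas2 or gcn4 and among the highest in shm2, the strain whose other proteasome genes were mostly negative, and the strains overlapped. Their means over the 5 strains were 0.58 ± 0.15 and 0.57 ± 0.15 (SE of the limma fit over 8 arrays, adjusted p = 0.205 for both). The other catalytic subunits were less even. PRE3, with the caspase-like site, stood at 0.51 and 0.09 in BY4741, 0.39 and -2.16 in bas1, 0.24 and 0.13 in bas2, 0.76 in gcn4 and 0.16 in shm2, so its only negative value is the single-spot one. PUP1, with the trypsin-like site, ran another way, at -0.37 and -0.11 in BY4741, 1.13 and 0.64 in bas1, 0.39 and 0.00 in bas2, -0.14 in gcn4 and 0.61 in shm2. PUP1 was thus negative on the 3 BY4741 and gcn4 arrays and positive on the other 5.

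Averaged over the 5 strains with equal weight, 29 of 34 proteasome genes had a positive mean (85.3%, against 56.7% of the 3168 genes tested), and their median was 0.31 against 0.06 over all genes. The 5 negative means were those of RPN14, RPT2, RPN1, RPN7 and RPN4. Among core genes the highest mean was that of PRE1, a beta subunit, at 0.74 ± 0.25 (SE, 8 arrays), and the lowest that of PRE8 at 0.03 ± 0.28. Within the regulatory particle the highest was the lid gene RPN8 at 0.69 ± 0.33 and the lowest the ATPase gene RPT2 at -0.33 ± 0.33. No proteasome gene passed limma's test (0 of 34 at an adjusted p under 0.05, where 0% of all genes passed). At an unadjusted p under 0.05, 6 were positive (PRE1, PRE2, PRE5, RPN9, RPN11 and RPT6), 17.6% of them where 12.3% of all genes were, and 0 were negative where 5.37% were. The smallest adjusted p among them was 0.205. With both bas1 arrays turned, 28 means were positive and the median was 0.30. The share over all genes was not computed for that count.

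**Figure D2:**
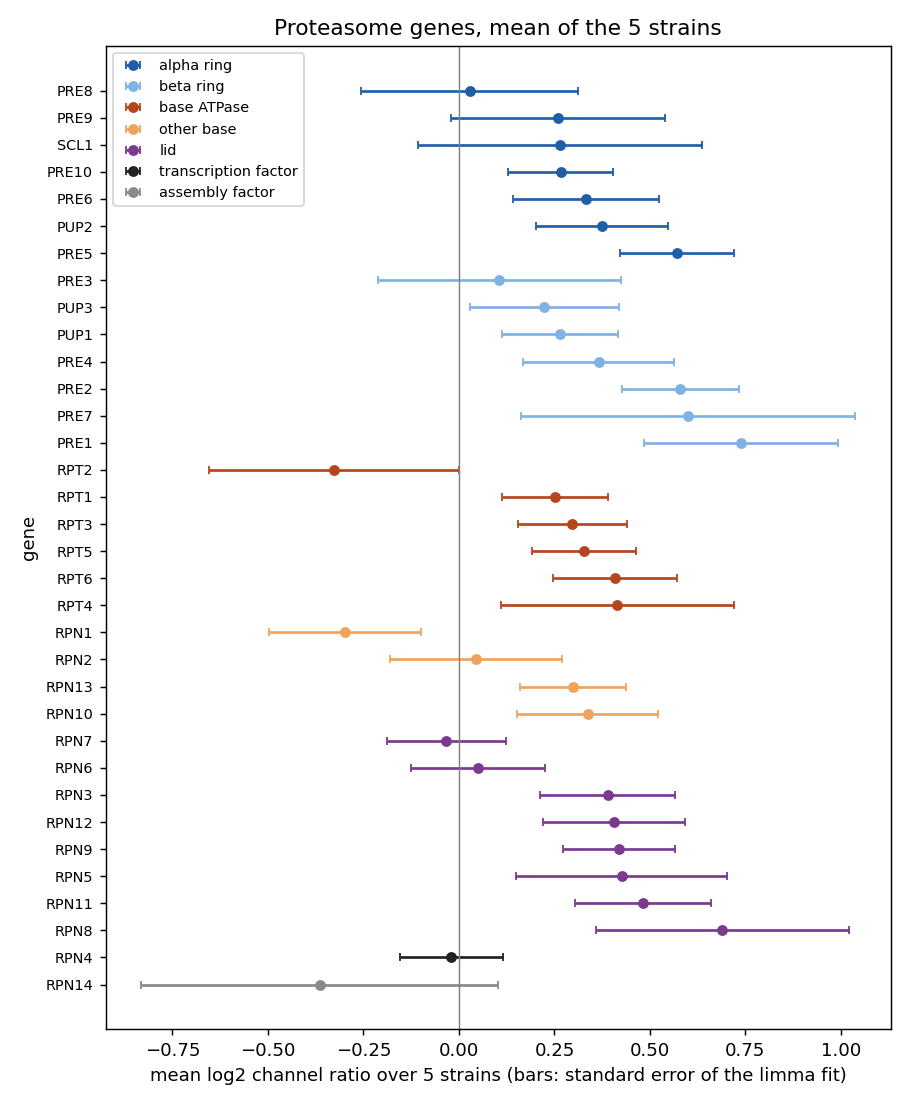
Mean centred log2 channel ratio over the 5 strains (x axis) for each proteasome gene (y axis), coloured by role, with bars for the standard error of the limma fit over 8 arrays. Means run from -0.36 (RPN14) to 0.74 (PRE1), and 29 of 34 lie above 0.

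Core and regulatory particle were compared within each array, as the median core gene minus the median regulatory gene. In BY4741 the core median was 0.86 and 0.11 and the regulatory median 0.62 and 0.13 (replicates 1 and 3), which leaves differences of 0.24 and -0.01. The bas1 differences were 0.17 and 0.02, and those of bas2 were 0.14 and -0.13. On gcn4 the difference was 0.07, from medians of 0.77 and 0.70. The shm2 array had the widest gap, 0.38, with core genes at 0.20 and regulatory genes at -0.17. The difference was positive on 6 of 8 arrays and averaged 0.13 ± 0.061 over the 5 strains (SE from the SD of 0.16 between replicates, pooled over the 3 replicated strains, with 3 degrees of freedom). Strains have equal weight, so the single shm2 array weighs as much as a replicated strain. The strain values were 0.11 in BY4741, 0.10 in bas1, 0.008 in bas2 and 0.07 in gcn4, against 0.38 in shm2. Within either particle, single genes of 1 array spread over an SD of 0.18 to 1.05. No p is given, because the difference is a score over chosen genes.

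Taking the mean over genes in place of the median moved the shm2 difference to 0.21 and the gcn4 difference to 0.26, and averaged 0.10 over strains. With RPN4 and RPN14 counted in the regulatory particle the average over strains was 0.18. In shm2, 9 of 14 core and 7 of 18 regulatory genes were positive. PRE2 at 1.03 and PRE5 at 0.94 were the highest core genes there and PRE9, the alpha subunit that yeast can live without, the lowest at -1.30, so the core itself was split on the array with the widest gap.

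**Figure D3:**
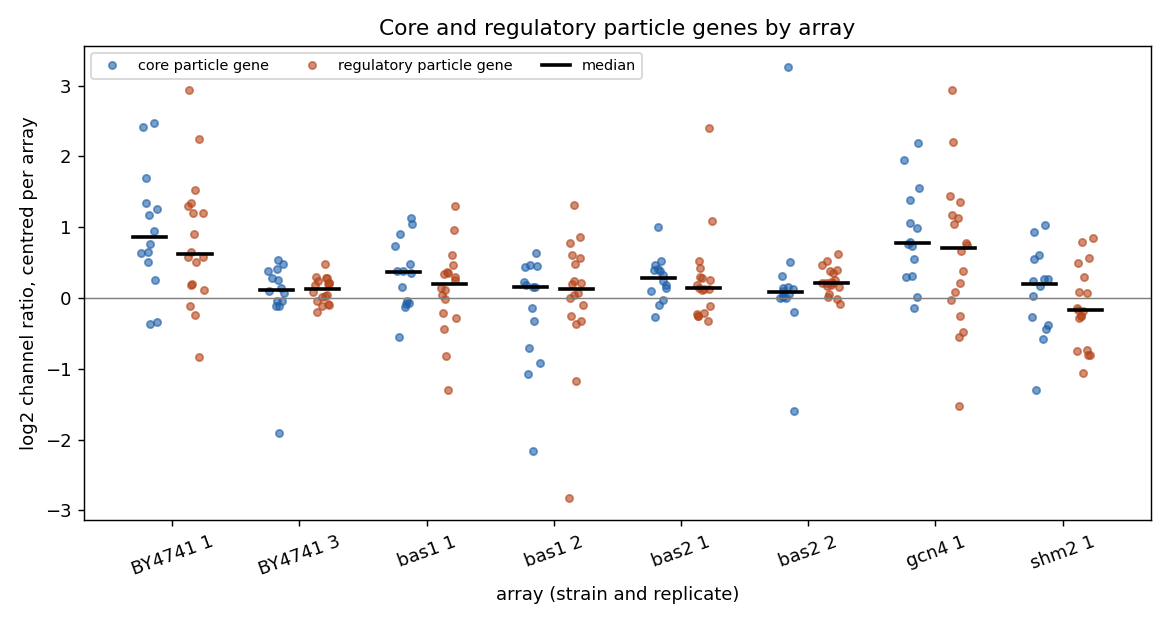
Centred log2 channel ratios (y axis) of 14 core (blue) and 18 regulatory particle genes (orange) on each of the 8 arrays (x axis), with black lines at the medians. The medians of the particles differ by -0.13 to 0.38, and single genes overlap on every array.

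The medians of the groups inside the regulatory particle lay furthest apart on BY4741 replicate 1 and gcn4. On most arrays they were further apart than the medians of the particles, though not on bas2 replicate 1 or shm2. How far small groups part by their size alone was not tested. The 8 lid genes, which encode the part that holds the deubiquitinating enzyme, had medians of 1.25 on BY4741 replicate 1 and 1.15 on gcn4, both at the 89.6th percentile of their array, and 8 of 8 were positive on each. On BY4741 replicate 3 the lid median was 0.21, at the 79.9th percentile. In the other strains it was smaller: 0.12 and -0.05 in bas1, 0.15 and 0.19 in bas2 and -0.23 in shm2. The 4 base genes other than ATPases had medians of -0.07 and -0.07 in BY4741, 0.15 and 0.52 in bas1, 0.03 and 0.32 in bas2, -0.52 in gcn4 and -0.21 in shm2. Lid genes thus stood above these base genes on BY4741, gcn4 and bas2 replicate 1 and below them in bas1, bas2 replicate 2 and shm2. The median of the 6 ATPase genes lay between 0.08 and 0.62 on the 8 arrays, while single ATPase genes ran from -2.83 (RPT2, 1 spot) to 2.40 (RPT4, discordant spots).

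RPN8, which encodes the lid partner of the deubiquitinating subunit Rpn11, had the widest swing among lid genes. It stood at 2.93 and 0.24 in BY4741, -1.30 and -1.18 in bas1, -0.25 and -0.02 in bas2, 2.94 in gcn4 and 0.29 in shm2. As deposited, the bas1 arrays lie below all others, and the difference between bas1 and BY4741 was -2.82 ± 0.92 (SE, adjusted p = 0.350 by limma). With bas1 turned, RPN8 stood at 1.30 and 1.18 there, inside the BY4741 range, and the difference was -0.35 ± 0.92 (adjusted p = 0.876). RPN5, another lid gene, was also highest on BY4741 replicate 1 and gcn4 but low in shm2, at 2.25 and 0.22 in BY4741, -0.83 and -0.09 in bas1, -0.11 and 0.01 in bas2, 2.21 in gcn4 and -0.80 in shm2. RPN11 itself was positive on 7 of 8 arrays, from -0.29 in shm2 to 1.53 on BY4741 replicate 1.

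RPN1, the large base subunit that docks ubiquitin receptors, was the lowest proteasome gene on BY4741 replicate 1 and gcn4, where the lid median was above 1. It stood at -0.83 and -0.19 in BY4741, 0.26 and 1.31 in bas1, -0.22 and 0.25 in bas2, -1.53 in gcn4 and -0.25 in shm2. RPN10, a ubiquitin receptor of the base, stood at -0.24 and -0.05 in BY4741, 1.30 and 0.57 in bas1, 1.09 and 0.21 in bas2, -0.55 in gcn4 and 0.80 in shm2. Both were positive on both bas1 arrays and negative on both BY4741 arrays and on gcn4. RPN2, the other large base subunit, stood at 1.35 on BY4741 replicate 1, but from spots at 2.41 and 0.28, and at -0.49 on gcn4.

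RPN4 ranged from the 16.2nd percentile of all genes (shm2) to the 70.2nd (gcn4). It stood at 0.13 and 0.03 in BY4741, -0.06 and -0.34 in bas1, 0.13 and 0.08 in bas2, 0.50 in gcn4 and -0.58 in shm2. Its highest value fell on gcn4, the array with the highest median of proteasome genes, and its lowest on shm2, the array with the lowest median. Its mean over strains was -0.02 ± 0.14 (SE, 8 arrays, adjusted p = 0.948 by limma). RPN14 was between 0.01 and 0.38 on the BY4741, bas2 and gcn4 arrays and on bas1 replicate 1, at -0.94 on shm2 and at -3.67 on bas1 replicate 2, where its spots read -4.67 and -2.68.

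In BY4741, 28 of 34 proteasome genes had a positive mean (82.4%, against 49.9% of 5512 genes), with a median of 0.45 at the 79.5th percentile. None passed limma's test (0% of all genes did). At an unadjusted p under 0.05, PRE1, PUP2 and RPN11 were positive, 8.82% of the genes where 1.67% of all genes were, and 0 were negative, where 1.72% were. PUP2, an alpha subunit, stood at 1.34 and 0.39, and PRE1 at 2.47 and 0.53. Without replicate 1 the median was 0.09. RPN8 had the highest mean (1.59 ± 0.64, SE, n = 2, adjusted p = 0.848 by limma) and RPN1 the lowest (-0.51).

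In bas1, 21 of 34 were positive (61.8%, against 56.0% of 3444 genes) and the median of 0.09 lay at the 47.8th percentile, close to the middle of the genes tested. Without centring, which keeps the array medians of 0.22 and -0.78 in the values, 12 were positive and the median was -0.20. With the sign turned, 13 were positive. Both alternatives act on every gene of these arrays, and the share over all genes was not computed for them. By limma 0 passed (0% of all genes did), and PRE5, PUP1, RPN10 and RPT5 were positive at an unadjusted p under 0.05, 11.8% where 9.84% of all genes were. None was negative at that p, where 6.50% of all genes were. RPT5, a base ATPase gene, stood at 0.96 and 0.86 in bas1. RPN10 had the highest mean (0.94) and RPN14 the lowest (-1.69), the latter from 0.28 and -3.67. Without bas1 replicate 1, the lone array left gave 3 calls by limma (PRE3, RPN14 and RPT2) among 694 over 3447 genes, of which PRE3 and RPT2 rest on 1 spot.

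In bas2, 25 of 34 were positive (73.5%, against 51.8% of 4897 genes), with a median of 0.19 at the 64.3rd percentile. No proteasome gene passed at an adjusted p under 0.05 (0% of all genes did) or at an unadjusted p under 0.05, where 2.61% of all genes were positive and 3.10% negative. The highest mean was that of PRE7 (1.68), from 0.10 on replicate 1 and the single spot on replicate 2, and the lowest that of PRE8 (-0.56), also carried by replicate 2.

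On gcn4, 28 of 34 were positive (82.4%, against 50.0% of 5378 genes). No proteasome gene passed limma's test, which assumes that this array varies like the replicated strains (0% of all genes did). At an unadjusted p under 0.05, 7 were positive (PRE1, PRE9, PUP2, RPN3, RPN5, RPN8 and RPN13), 20.6% where 4.33% of all genes were, and RPN1 was negative, where 7.38% of all genes were. RPN8 was highest at 2.94 ± 0.90 (SE, 1 array) and RPN1 lowest at -1.53, with an adjusted p of 0.419 for RPN8.

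On shm2, 16 of 34 were positive (47.1%, against 50.0% of 5469 genes). None passed limma's test (0% of all genes did) or an unadjusted p under 0.05, where 2.14% of all genes were positive and 2.67% negative. PRE2 was highest at 1.03 ± 0.42 and PRE9 lowest at -1.30 ± 0.76 (SE, 1 array). The lowest regulatory gene was RPT4 at -1.06.

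The array pair with the most similar proteasome values crossed strains. BY4741 replicate 1 and gcn4 correlated at r = 0.85 over the 34 genes (r = 0.64 over 5362 genes), 0.96 within the core and 0.82 within the regulatory particle. RPN8, PRE1, RPN5 and PRE9 led both arrays, at 2.93, 2.47, 2.25 and 2.42 on BY4741 replicate 1 and 2.94, 2.19, 2.21 and 1.95 on gcn4. The BY4741 replicates correlated at r = 0.19 (0.39 over all genes), with a Spearman rho of 0.51. Within the regulatory particle their r was 0.60, and within the core, which holds the discordant SCL1 value, 0.09. For bas1 replicates 1 and 2, r was 0.35 (0.08 over all genes). The bas2 replicates correlated at -0.06 (0.16 over all genes). Arrays of bas1 and bas2 with the same number correlated at 0.37 for replicates 1 (0.63 over all genes). For replicates 2 the value was -0.09 (0.49 over all genes). BY4741 replicate 1 and bas1 replicate 1 ran against each other, at r = -0.68 over the proteasome genes and -0.35 over all genes. The shm2 array correlated at 0.52 with bas1 replicate 1 and at -0.40 with BY4741 replicate 1. These values describe 34 genes that share arrays and handling and carry no test.

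**Figure D4:**
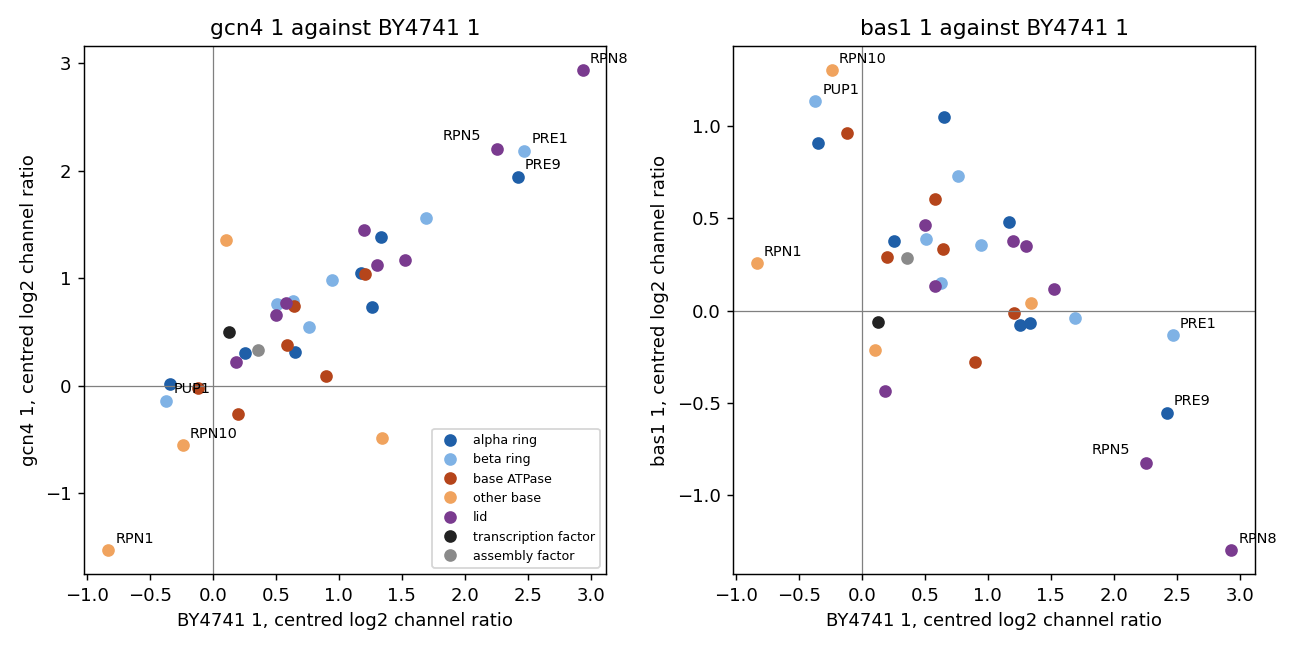
Centred log2 channel ratios of the 34 proteasome genes on BY4741 1 (x axes) against gcn4 1 (left) and bas1 1 (right), coloured by role. RPN8 is at 2.93 on BY4741 1, 2.94 on gcn4 1 and -1.30 on bas1 1, whereas RPN2 (1.35 on BY4741 1) is at -0.49 on gcn4 1 and RPN12 (1.30 on BY4741 1) at 0.35 on bas1 1.

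Differences of the deletion strains from BY4741 share the BY4741 arrays, so their counts are set side by side without comparison. In bas1, 11 of 34 proteasome genes stood above their BY4741 value (32.4%, against 54.2% of all genes), with a median difference of -0.33 where all genes had 0.11. In bas2, 11 did (32.4%, against 45.5%), with a median of -0.13 where all genes had -0.08. In shm2, 11 did (32.4%, against 49.9%), with a median of -0.39 where all genes had -0.0020. In gcn4, 27 did (79.4%, against 49.3%), with a median of 0.28 where all genes had -0.01. For bas1 against bas2 the median was -0.14, with 15 of 34 higher in bas1 (44.1%, against 48.5%).

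No proteasome gene passed limma's test in any of these 5 comparisons, where 0% of all genes did. At an unadjusted p under 0.05, PUP1 and RPT5 were higher and RPN8 lower in bas1 than in BY4741 (8.28% and 5.80% of all genes). RPN13, a ubiquitin receptor, was higher in gcn4 (0.710% of all genes) and 0 were lower (2.80%). PRE9 and RPN3 were lower in shm2 (2.46% of all genes) and 0 higher (1.40%), and 0 differed in bas2 (0.964% higher and 0.923% lower among all genes). PRE9 stood at 2.42 and 0.26 in BY4741 and -1.30 in shm2, a difference of -2.64 ± 0.94 (SE, limma adjusted p = 1.00). Both BY4741 arrays were positive and both bas1 arrays negative for 8 of 34 genes (23.5%, where 10.1% of all genes were), RPN8, PRE1 and RPN5 among them. With bas1 turned it was again 8 genes (23.5%, against 8.63% of all genes), namely PRE2, PRE5, RPN3, RPN9, RPN11, RPT1, RPT3 and RPT6. The turn changes the sign of every bas1 value, so the lists cannot overlap. For bas1 against bas2, 0 of 34 passed the unadjusted p, where 0.920% of all genes were higher and 1.63% lower.

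The medians of these differences turn on BY4741 replicate 1. Without it the bas1 median was -0.01 and 20 of 34 genes stood higher in bas2, and the gcn4 median was 0.67. Without BY4741 replicate 3 the gcn4 median was -0.03, with 16 of 34 higher, the bas1 and shm2 medians were -0.75 and -0.86, and 6 of 34 stood higher in bas2. Without centring, 4 or fewer genes stood above BY4741 in each deletion strain, gcn4 included (median -0.47). The array medians then stay in the values, at 0.65 and 0.33 in BY4741 and from -0.78 to 0.41 in the deletion strains. An offset of the whole array is thus part of these counts. The share over all genes was not computed for the counts in this paragraph. With arrays scaled to a common median absolute deviation, the gcn4 median was 0.04. With both bas1 arrays turned, 7 were higher in bas1 than in BY4741 and the median was -0.66.

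A list of 42 partner genes, of which 41 were measured, gave the surroundings of the proteasome: assembly factors, bound proteins, ubiquitin and its conjugation, the Cdc48 complex, shuttle factors and regulators of Rpn4. Over the 5 strains, 22 of the 31 partners tested were positive (71.0%, against 56.7% of all genes), with a median of 0.04 where all genes had 0.06. None passed limma's test in any comparison. At an unadjusted p under 0.05 in the mean over strains, PBA1, an assembly chaperone of the core, RPL40B, a ubiquitin fusion gene, and UBR1, the ligase of the N-degron pathway, were positive (9.68%, against 12.3% of all genes) and 0 were negative (against 5.37%). In BY4741, 25 of 40 partners were positive (62.5%, against 49.9% of all genes; median 0.17) and in bas1 14 of 32 (43.8%, against 56.0%; median -0.08). In bas2, 27 of 41 were (65.9%, against 51.8%; median 0.12), in gcn4 25 of 41 (61.0%, against 50.0%; median 0.28) and in shm2 24 of 40 (60.0%, against 50.0%; median 0.11).

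UBR1 was positive on all 8 arrays, at 0.05 and 0.35 in BY4741, 1.00 and 0.78 in bas1, 0.55 and 0.52 in bas2, 0.35 in gcn4 and 1.17 in shm2. Its mean was the highest among the partners and that of UBC5, a ubiquitin-conjugating enzyme gene, the lowest, the latter with -4.65 on bas1 replicate 2. Of the shuttle factor genes, whose products carry ubiquitinated proteins to the base, DSK2 and RAD23 had the pattern of RPN10 and DDI1 did not. DSK2 stood at -1.06 and -0.01 in BY4741, 1.51 and 1.14 in bas1, 0.83 and 0.32 in bas2, -0.35 in gcn4 and 0.33 in shm2. RAD23 stood at -0.83 and -0.05, 0.96 and 0.71, 0.27 and 0.28, -0.88 and 0.31 on the same arrays. As for RPN10, both bas1 arrays and both bas2 arrays were positive and the BY4741 and gcn4 arrays negative. DDI1 stood at -0.03 and 0.36 in BY4741, 0.53 and -0.47 in bas1, 0.47 and -0.13 in bas2, 0.10 in gcn4 and 0.31 in shm2. DSK2 and RAD23 were singled out after their values were seen. Of all genes, 12.0% were negative on both BY4741 arrays and positive on both bas1 arrays. The share with the whole pattern was not computed. UBI4, the polyubiquitin gene, stood at 0.44 and 0.22 in BY4741, -0.22 and -0.04 in bas1, -0.41 and -0.20 in bas2, 1.01 in gcn4 and -0.76 in shm2.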

How the data were processed

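The series compared growth with and without glycine in 5 yeast strains on 8 arrays with 2 channels. The deposited values are log2 channel ratios per spot; per the labels, scanning used a GenePix 4000B and spot analysis GenePix Pro 3.0. Nothing used here states the background handling, dyes, normalization or genome build; positions and sequences are therefore omitted. That the values are log2 was read from the values themselves: 2 to their power was a multiple of 0.001, within 0.01 of that step, for 98.4% or more on every array.

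Of 12800 spots, 11138 carried 1 gene symbol, 0 several and 1662 none; 11128 were matched by gene identifier to the RefSeq table of assembly R64 for their names. Spots were averaged per gene and arrays centred on their median gene. The tests were two-sided and used limma 3.58.1 under R 4.3.3. A single lmFit run fitted 5 strain means to the 8 arrays, so strains share 1 spread with at most 3 residual degrees of freedom. Variances were then moderated with squeezeVar, the step that eBayes uses, separately over the genes tested in each comparison. Benjamini-Hochberg adjustment ran over all genes tested, with a threshold of 0.05. The fit was also run on simulated data in which a gene varied equally on all 8 arrays. The real arrays differ in spread (SD 0.379 to 2.07), so that run does not test the shared spread.

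The genes, their roles, the partner list and the tests were chosen with earlier results of these data known. The rule for named genes takes RPN4, the catalytic subunits, the highest and lowest gene of each particle and strain, and any gene past the test, with the others by range and counts; other genes printed by array were chosen after their values were seen. Alternatives were other centring and scaling, spot filters, turned bas1 signs, array weights, blocks and leaving out arrays.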

Additional observations from a re-analysis of the deposited data

Results flagged for a closer look

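Both arrays of 1 strain lay on 1 side of the middle gene and both arrays of another strain on the other side for the following genes. These differences did not pass limma's test, and the signs rest on the centring and on the deposited direction of the bas1 arrays. Between BY4741 and bas1, 8 of 34 proteasome genes (23.5%, against 10.1% of all genes) were positive in BY4741 and negative in bas1. Their differences, bas1 minus BY4741, were -2.82 for RPN8, -2.15 for RPT2, -1.97 for PRE9, -1.69 for RPN5, -1.64 for PRE1, -1.06 for PUP2, -0.43 for RPN13 and -0.29 for RPN4. The RPT2 value includes a single spot on bas1 replicate 2. In the opposite direction, 3 of 34 (8.82%, against 12.0%) were negative in BY4741 and positive in bas1, with differences of 1.29 for RPN1, 1.13 for PUP1 and 1.08 for RPN10. With both bas1 arrays turned, 8 genes (23.5%, against 8.63%) were positive in BY4741 and negative in bas1 (PRE2, PRE5, RPN3, RPN9, RPN11, RPT1, RPT3 and RPT6) and 0 the reverse (against 5.98%). That these are different genes follows from the turn itself.

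Between BY4741 and bas2, RPN8 was positive in BY4741 and negative in bas2 (-1.72, 2.94% of the genes against 6.61% of all genes). PUP1 (0.43) and RPN10 (0.79) went the other way (5.88%, against 5.93%). Between the bas strains, 5 of 34 (14.7%, against 5.43%) were negative in bas1 and positive in bas2. Their differences, bas2 minus bas1, were 2.15 for PRE7, which rests on a single spot on bas2 replicate 2, 0.74 for RPN13, 0.65 for PRE1, 0.31 for RPN4 and 0.29 for PUP2. None was positive in bas1 and negative in bas2, where 2.94% of all genes were. With bas1 turned, 13 of 34 (38.2%, against 23.7%) were negative in bas1 and positive in bas2, and RPN8 alone the reverse (2.94%, against 11.2%). The turn by itself keeps these 13 apart from the 5 above.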

How the results depend on the processing

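Under the alternatives run, the count of proteasome genes past limma's test stayed at 0 in every comparison except without bas1 replicate 1, where it was 3 for bas1, 3 for bas1 against BY4741 and 2 for bas1 against bas2, with 0 in each when another array was left out. The lone bas1 array left, the one with the widest spread, is then assumed to vary like the others, and 20.1%, 16.4% and 7.1% of all genes were called in these comparisons. The 5 genes positive on every array became 0 without centring and 3 with discordant spots left out, and no share over all genes was computed for either. With bas1 turned the count was 0, where the turn by itself takes out these 5. Core minus regulatory moved to -0.10 in bas1 with the sign turned, and to 0.26 in gcn4 and 0.21 in shm2 with means over genes; its other values stayed within 1 SD between replicates.

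Some means of single genes changed sign. PRE8 over strains went to -0.023 without centring, -0.18 with bas1 turned, -0.019 without BY4741 replicate 3, -0.05 without bas1 replicate 1 and -0.18 without bas2 replicate 1. Over its leave-outs it ran from -0.18 to 0.23. With bas1 turned, RPN4, PUP1 and RPT2 over strains went to 0.062, -0.091 and 0.30. RPN10 and RPN14 in bas1 went to -0.94 and 1.69, which is only the turn itself. Leaving out single arrays, PRE3 over strains ran from -0.15 to 0.36, RPN4 over strains from -0.048 to 0.0089, RPN14 in bas1 from -3.67 to 0.285 and PRE8 in bas2 from -1.59 to 0.46; the bas1 and bas2 arrays set these ends.

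The replicate block for bas1 against bas2 gave 0 calls (smallest adjusted p = 0.593). Replicate deviations of these strains correlated at 0.50 over 3168 genes, but 2 shared numbers do not show pairing. Over all genes, bas1 and bas2 arrays of the same number correlated at 0.63 and 0.49. Replicates of 1 strain correlated at 0.08 (bas1) and 0.16 (bas2). Replicates of these strains were thus less alike than their arrays that share a number. A further block used a number series read from the titles, which is not the replicate number. It set shm2 and replicates 2 of bas1 and bas2 against all other arrays, both BY4741 arrays included. What the series stands for is not stated. That block gave 0 calls, and the gcn4 median was then 0.48.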
